A study of Mus musculus with 10 samples.

Results

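The transcripts described here come from mouse chromosome 6, in 10 clones of immortalized mouse embryonic fibroblasts (MEFs), connective tissue cells that grow indefinitely in culture. The members are the protein-coding genes that GENCODE M21 places on chromosome 6 of GRCm38 and whose mean over the 10 libraries was at least 8 CPM (gene counts per library, each scaled by that library's total), with the genes of the Hoxa cluster left out. They number 441 of the 26401 genes in the count table. Of the 821 protein-coding genes of chromosome 6 in that table, 376 lay under the minimum and 4 Hoxa genes lay over it and were left out. The members nearest the minimum were Aak1 at 8.13 CPM and Rybp at 8.17 CPM, and the nearest genes outside it were D630045J12Rik at 7.87 CPM and Zfand4 at 7.86 CPM. The chromosome was chosen because its transcripts differed between the groups, so the size of that difference is given as a description, with no test.

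All 10 clones carried the mitochondrial DNA mutation m.5024C>T, which lies in the gene for the mitochondrial alanine tRNA, and the mouse strain is named as C57Bl/6N. Each cell carries many copies of mitochondrial DNA, and a mixture of mutated and unmutated copies is called heteroplasmy. The high group holds 5 clones with a high mutant share (called high 1 to high 5), and the low group holds 5 clones with a low mutant share (called low 1 to low 5, each with a clone number of its own). No share is stated for single clones. No other treatment was applied, and all were grown in high-glucose medium with serum and 50 µg/ml uridine, which lets cells with weak respiration grow. Each clone gave 1 poly(A) RNA library, so clone and library are the same unit throughout. Library totals ran from 17318372 to 28208576 counts, and 17408 to 18429 genes were detected per library. Of 10 fibroblast markers, 9 averaged at least 1 CPM, and their summed level was 9402 to 19610 CPM in the high clones and 11540 to 13410 CPM in the low clones. Summed levels of other marker lists were 113 to 509 CPM in the high and 453 to 671 CPM in the low clones for 5 epithelial genes, and 4.59 to 11.6 against 13.6 to 33.6 CPM for 4 neural genes, which did not overlap. They were 11.7 to 89.9 against 12.3 to 25.99 CPM for immune, 4.16 to 24.7 against 2.34 to 5.24 CPM for muscle and 0.30 to 1.42 against 0.40 to 1.71 CPM for endothelial genes. Of these lists, Cdh5 (endothelial), Ptprc (immune), Sox10 (neural) and Myog (muscle) were at 0 in every library. The part of such differences in the results was not tested.

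Cultured fibroblast lines are known to drift in karyotype, and cells of a clone share the chromosome set of the cell that founded it. Where a whole chromosome or a stretch of it is gained or lost, the transcripts of most genes on it tend to move together by a small, similar factor, while single genes under their own regulation stand out from that common shift. Only RNA was measured here. Chromosome number was not, and its part in these values was not tested.

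For each member, the log2 CPM in a library was set against the mean of the 5 low libraries (of the other 4, for a low library), and the median over the 441 members is called the shift of that library. The shift was 0.59 in high 1, 0.41 in high 2, 0.29 in high 3, 0.06 in high 4 and 0.35 in high 5. It was -0.03, -0.02, 0.05, 0.06 and -0.00 in low 1 to low 5. Thus 4 of the high clones lay at least 0.23 above the highest low clone, while high 4 lay within 0.01 of the highest low clone. Set instead against each gene's median over the 10 libraries, which draws intermediate values toward 0, the shift averaged 0.20 ± 0.18 (SD, n = 5) in the high group and -0.10 ± 0.04 (SD, n = 5) in the low group. On that scale high 4 stood at -0.04 and the highest low clone, low 4, at -0.06, so the groups came within 0.02 of each other without overlapping. They did overlap under 2 alternatives: with TMM without chromosomes 6, 8, 10 and 14, high 4 was at -0.07 and low 3 at -0.05, and with a minimum of 30 CPM, high 4 was at -0.06 and low 4 at -0.04. The spread among the high clones was several times that among the low clones on either scale.

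**Figure D1:**
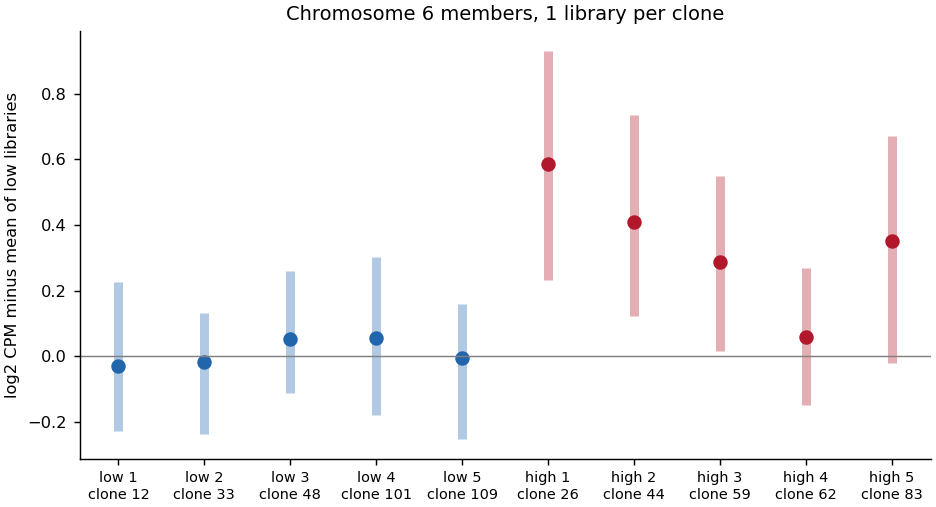
Chromosome 6 shift of each library, as log2 CPM minus the mean of the low libraries (y axis), for the 5 low (blue) and 5 high (red) clones (x axis); points are medians over 441 members and bars run from the lower to the upper quartile of the members. High 1 has the highest median at 0.59 and high 4 lies at 0.06, beside the low clones.

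The shift involved most members rather than a few. In high 1, 303 members (68.7%) lay above the highest of the 5 low libraries, against 26.3% of the 9518 genes on 20 chromosomes that pass the same rule. The share was 60.8% in high 2 (25.7% of all such genes), 47.4% in high 3 (26.5%), 23.1% in high 4 (22.5%) and 52.6% in high 5 (30.6%). In high 4 the members' share was thus near that of all genes. Expression level made little difference: the median log2 fold change, high over low, was 0.40 in the 147 members of lowest mean CPM, 0.39 in the next 147 and 0.31 in the 147 of highest CPM.

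Other chromosomes also shifted in single clones, each in its own pattern. On the gene-median scale, high 1 stood at 0.44 on chromosome 6, -0.33 on chromosome 8, 0.00 on chromosome 10 and -0.37 on chromosome 14. High 5 stood at 0.18, -0.50, 0.42 and -0.15 on the same 4 chromosomes. High 4, near the low clones on chromosome 6, stood at 0.34 on chromosome 10 and -0.26 on chromosome 14. On chromosome 3, high 1 was at 0.44 and high 4 at -0.36, so a chromosome on which the groups differed little (-0.09, high minus low) could hold clones shifted as far as high 1 was on chromosome 6. The mean difference between the groups was 0.30 on chromosome 6, 0.29 on chromosome 10, -0.57 on chromosome 8 and -0.39 on chromosome 14.

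**Figure D2:**
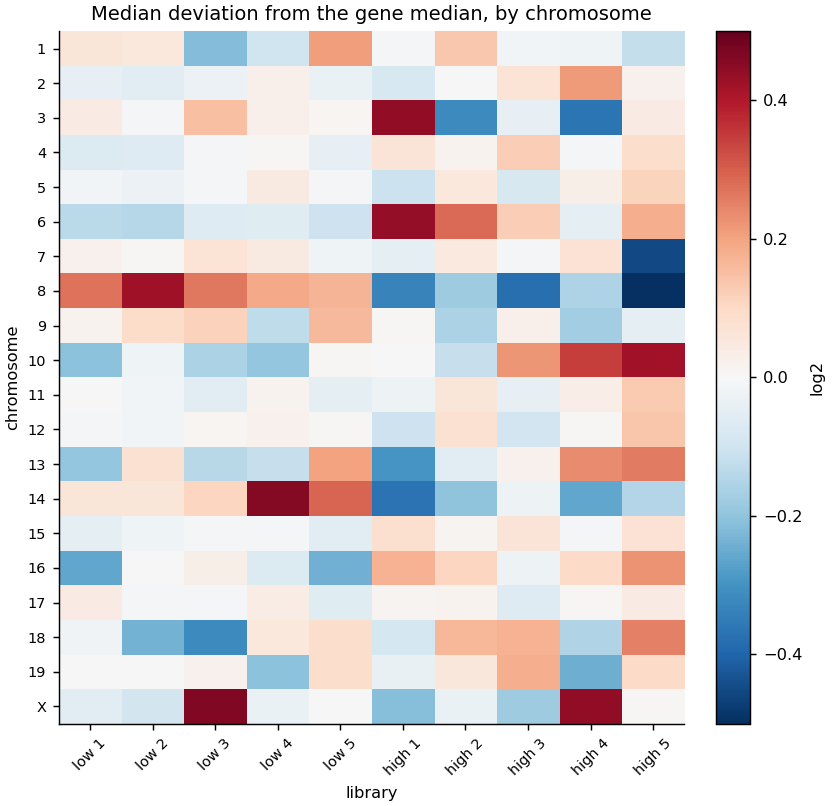
Median deviation of each chromosome's genes from the gene median (colour, log2) for 20 chromosomes (rows) and 10 libraries (columns, low then high). Chromosome 6 is red in high 1 (0.44) and high 2 (0.29) and close to 0 in high 4 (-0.04).

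Along the chromosome the high clones differed in shape. In 10 Mb windows of 8 to 68 members, high 1 and high 2 were above the low mean in 15 of 15 windows, high 3 in 14, high 5 in 11 and high 4 in 10. Low 1 to low 5 were above the mean of the other low clones in 5, 4, 14, 9 and 9 windows. By this count only high 1 and high 2 exceeded every low clone. In high 1 the window medians lay between 0.26 and 0.83: 0.29 at 0 to 10 Mb, 0.69 at 70 to 80 Mb, 0.30 at 100 to 110 Mb, a window of 10 members, and 0.83 at 130 to 140 Mb. In high 2 they were 0.34 at 0 to 10 Mb, 0.56 at 30 to 40 Mb, 0.58 at 110 to 120 Mb and 0.19 at 140 to 150 Mb. In high 3 they lay between -0.02 and 0.46, and in high 4 between -0.09 and 0.20.

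The widest range of window medians was in high 5. Its window medians were -0.21 at 0 to 10 Mb, 0.23 at 20 to 30 Mb, 0.02 at 40 to 50 Mb, -0.15 at 50 to 60 Mb and -0.16 at 60 to 70 Mb. From there they were 0.29 at 70 to 80 Mb, 0.49 at 80 to 90 Mb, 0.62 at 100 to 110 Mb and 0.44 at 140 to 150 Mb. A single change point, placed where it best divided the members and leaving at least 20 on each side, fell between Mrpl35, a mitochondrial ribosomal protein gene, and Immt, which organises mitochondrial cristae and starts at 71831331. The median was 0.04 before that point and 0.49 after it. On the gene-median scale the point fell between Loxl3 and Htra2, near 83051266, with 185 members before it at -0.01 and 256 after it at 0.35. On that side 66.8% of the members lay above all low libraries, against 32.97% before it. These positions were searched for in the same values, so they describe the profile and carry no test.

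The same search in high 1 placed its change between Zfp746 and Krba1, which starts at 48395586, with medians of 0.31 before and 0.67 after. In high 2 it fell between Lpcat3 and Emg1, at 124704085, with 0.47 before and 0.27 after. The search returns a point in every library, and in the low clones its steps ran from -0.14 in low 5 to 0.21 in low 2. In high 5 the difference between the 221 distal and the 220 proximal members was 0.31 on the gene-median scale (0.34 distal, 0.03 proximal), the largest in size of 200 combinations of chromosome and library. It was nearly equalled on chromosome 4 in high 3 (0.31), and chromosome 1 reached -0.29 in low 5, so such steps also occurred elsewhere and in the low group. On the gene-median scale, the best change point removed 8.77% of the members' summed absolute deviation in high 5, rank 6 of the 200 combinations. It removed 2.91% in high 1 (rank 21) and 1.01% in high 2 (rank 91).

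**Figure D3:**
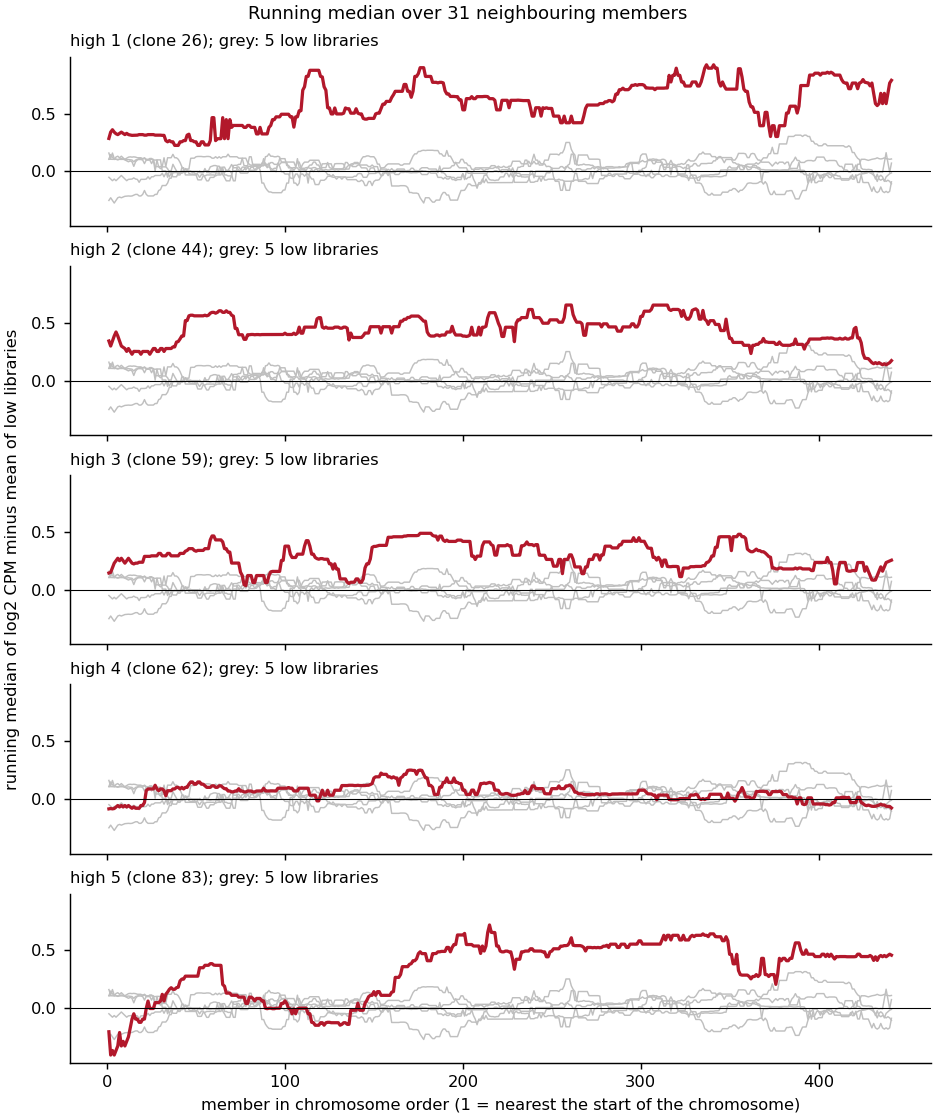
Running median over 31 neighbouring members of log2 CPM minus the mean of the low libraries (y axis) against member order along chromosome 6 (x axis), with 1 panel per high clone (red) and the 5 low clones in grey. High 5 runs from -0.41 near the chromosome start to a peak of 0.72 and stays above 0.40 over the last 60 members, and high 4 stays between -0.09 and 0.25.

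As a group, the high clones showed no common slope along the chromosome. The distal minus proximal difference averaged 0.07 ± 0.16 (SD, n = 5) in the high group and -0.02 ± 0.04 (SD, n = 5) in the low group, a difference of 0.08 that missed the threshold of 0.05 (exact permutation, two-sided, p = 0.349, 0.349 after adjustment over 2 tests; the smallest p that 252 arrangements allow is 0.00794). Without high 5 the difference was 0.01. In 6 of the 15 windows (20 to 40 Mb, 70 to 100 Mb and 110 to 120 Mb) all high clones lay above all low clones on the gene-median scale. Against the low mean this held only at 20 to 30 Mb and 70 to 80 Mb. In the others of the 6, high 4 lay below a low clone, as at 30 to 40 Mb (0.09 against 0.13 in low 4).

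The scatter of the members around the shift was compared as well. The interquartile range of the members' deviations from the gene median was 0.67 in high 1, 0.53 in high 2, 0.45 in high 3, 0.31 in high 4 and 0.55 in high 5. It lay between 0.31 and 0.38 in the low clones, so high 4 lay within the low range. The means were 0.50 ± 0.13 (SD, n = 5) and 0.35 ± 0.03 (SD, n = 5), and the difference of 0.15 missed it after adjustment (exact permutation, two-sided, p = 0.0397, 0.0794 adjusted). It passed when high 2, high 4 or high 5 was left out (differences of 0.21, 0.25 and 0.20, exact permutation, adjusted p = 0.0317, 0.0159 and 0.0476). It missed the threshold with any low clone left out (exact permutation, adjusted p from 0.270 to 0.333). The same held with the replicate number as a block (exact sign flips, adjusted p = 0.25). With the gene mean as reference the difference was 0.09 (exact permutation, adjusted p = 0.206). When a library was left out, the gene median was retaken over the rest and leaned toward the larger group. The passes and misses with a library left out can therefore not be assigned to single clones. Genes of the other chromosomes had interquartile ranges of 0.43 to 0.60 in the high clones and 0.31 to 0.43 in the low clones.

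In the test of high against low on raw counts (edgeR quasi-likelihood, adjusted over 12964 genes), 47 of the 441 members passed an adjusted p of 0.05. Of these 45 were higher and 2 lower in the high group. Over all genes 4.86% passed, 1.99% higher and 2.87% lower. Since the chromosome was chosen from this contrast, these counts describe the members and are not evidence for them. The log2 fold change was above 0 for 371 of the 441 members, with a median of 0.35 against 0.02 over all genes tested. In 55 members (12.5%) every high clone exceeded every low clone in CPM (3.00% of all genes did so), and in 3 (0.68%) every high clone was lower (4.17% of all genes). By position, 21 of the 220 proximal and 24 of the 221 distal members were called higher. The count of 47 fell to between 14 and 19 without high 2, high 3 or any 1 of the low clones and to 29 without high 5, and rose to 75 without high 4. Over all genes the calls moved too, from 258 higher and 372 lower to 86 and 150 without low 1. Without high 4 they were 339 and 465.

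The question of which members depart from their own chromosome was tested by giving each library an offset for each chromosome's median before the same fit. Relative to the shift, 8 members passed, 5 higher and 3 lower, while 1.25% of all genes passed, 0.648% higher and 0.602% lower. The members' share was 1.81%, near that background. Of the 8, Atoh8, Gsdme and Ndnf reached the CPM minimum only through the group where they are high. The median relative log2 fold change of the members was 0.05, and 249 of 441 were above 0. The offset was taken on the gene-median scale, where the groups differed by 0.30, while the members' median log2 fold change was 0.35. A small part of the shift thus stayed in, and the relative values lean slightly upward. Of the 47 members called without the offset, 7 stayed called with it, and 1 (Sgce) was called only with it. The count of 8 fell to 3 without high 3, low 1 or low 3, to 5 without high 2, low 2, low 4 or low 5, and rose to 14 without high 1 and to 15 without high 4. Over all genes the relative calls went from 84 higher and 78 lower to 27 and 38 without low 3. Without high 4 they were 149 and 153.

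**Figure D4:**
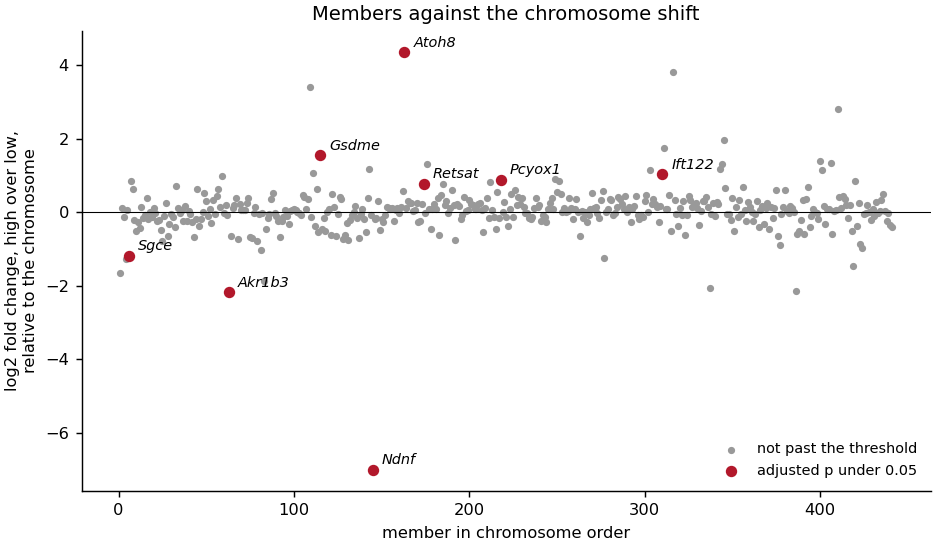
Log2 fold change, high over low, relative to the chromosome shift (y axis) of each member in chromosome order (x axis); red points with names passed an adjusted p of 0.05 (edgeR). Atoh8 stands highest at 4.35 and Ndnf lowest at -7.01, and most members lie close to 0.

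RefSeq start regions were at hand for 4 of the 5 members that rose relative to the chromosome, and the 100 bases before each start are shown because these genes departed from their neighbours. They are read 5′ to 3′ on the gene's strand in GRCm38.p6, with each CG dinucleotide in capitals, the base pair step that is methylated in mouse DNA. They lie at chr6:72235578-72235677 (Atoh8, minus strand), chr6:50261770-50261869 (Gsdme, minus strand, at a start 2093 bases inside the outermost GENCODE one), chr6:86397151-86397250 (Pcyox1, minus strand) and chr6:72598502-72598601 (Retsat, plus strand).
Atoh8: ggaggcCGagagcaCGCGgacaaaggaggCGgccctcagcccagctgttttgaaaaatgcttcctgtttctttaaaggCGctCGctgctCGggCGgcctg
Gsdme: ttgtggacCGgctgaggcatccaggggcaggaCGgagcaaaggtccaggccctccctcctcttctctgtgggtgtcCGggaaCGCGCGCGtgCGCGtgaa
Pcyox1: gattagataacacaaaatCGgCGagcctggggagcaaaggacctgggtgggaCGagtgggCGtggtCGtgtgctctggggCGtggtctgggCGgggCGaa
Retsat: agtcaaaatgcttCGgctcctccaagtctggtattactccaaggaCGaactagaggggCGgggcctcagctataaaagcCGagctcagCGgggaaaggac
They hold 8, 9, 8 and 5 CG steps. Over the 300 bases around each start, the ratio of observed to expected CG was 0.76 for Atoh8, 0.75 for Gsdme, 0.74 for Pcyox1 and 0.71 for Retsat. Of the 373 members with such a region, 291 (78.0%) had a ratio of at least 0.6, against 35.8% of all 32851 start regions, which include genes that are off in these cells. The letters TATAAA, on either strand, stood in the region of Retsat and in 25 member regions (6.70%), against 13.6% of all regions. The median log2 fold change was 0.35 in the 291 members with a ratio of at least 0.6 and 0.37 in the 82 below it, while the median within-group SD of single members around the shift was 0.28 and 0.36.

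Atoh8, a basic helix-loop-helix transcription factor gene at chr6:72206177-72235577, had the largest rise. It measured 30.8, 116, 116, 56.8 and 42.9 CPM in high 1 to high 5 and 2.67, 4.56, 4.08, 1.55 and 1.79 CPM in low 1 to low 5. The lowest high clone was more than 6 times the highest low clone in CPM. Relative to the chromosome the log2 fold change was 4.35 (SE 0.50, edgeR adjusted p = 0.00361), and the call held with any 1 library left out. Every low clone lay under the minimum of 8 CPM. Atoh8 was thus a member only through the high clones, so its call and that count of fits are a description.

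Gsdme, at chr6:50188888-50263862, encodes gasdermin E, which forms membrane pores once it is cut by a caspase. It measured 23.6, 26.7, 19.4, 18.5 and 18.5 CPM in the high clones and 7.11, 4.34, 7.54, 4.55 and 5.98 CPM in the low clones. Both groups were narrow and did not overlap. Its relative log2 fold change was 1.54 (SE 0.20, edgeR adjusted p = 0.00564), and it too stayed called with any 1 library left out. As with Atoh8, every low clone lay under 8 CPM. Gsdme thus passed the minimum only through the high clones, and these values are a description.

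Pcyox1, at chr6:86386006-86397154, encodes an oxidase that breaks down prenylcysteine left from prenylated proteins. It measured 130, 121, 138, 75.6 and 126 CPM in the high clones and 50.9, 60.2, 47.5, 46.1 and 53.1 CPM in the low clones. High 4 was the lowest of the high clones, as it was for the chromosome shift, and still exceeded every low clone. The relative log2 fold change was 0.88 (SE 0.15, edgeR adjusted p = 0.0220), called in 7 of the 10 fits with a library left out.

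Ift122 (chr6:115853470-115926699) encodes a part of the transport complex that moves proteins within cilia. It measured 42.0, 62.2, 42.1, 24.0 and 51.6 CPM in the high clones and 17.3, 22.4, 17.4, 14.6 and 14.8 CPM in the low clones, so high 4 lay just above low 2. Retsat (chr6:72598475-72608425), which saturates retinol and is a known target of the fat cell regulator PPARγ, measured 40.7, 49.4, 42.3, 35.9 and 31.8 CPM against 18.8, 15.7, 22.8, 22.3 and 16.04 CPM. The relative log2 fold changes were 1.04 (SE 0.21, edgeR adjusted p = 0.0459) for Ift122 and 0.77 (SE 0.16, edgeR adjusted p = 0.0436) for Retsat. Both lie close to the threshold: each was called in 2 of 10 fits with a library left out, and with an offset per 10 Mb window their adjusted p was 0.0508 and 0.0523.

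Ndnf, at chr6:65671590-65712326, encodes a secreted factor first described as a trophic factor for neurons. It measured 0.15, 0.09, 0.00, 0.52 and 0.00 CPM in the high clones, 18 counts in all, and 1.88, 14.1, 23.6, 3.18 and 41.2 CPM in the low clones, 1629 counts in all. It was at or near 0 in every high clone, and it passed the minimum, at a mean of 8.22 CPM, only through the low clones. The relative log2 fold change was -7.01 (SE 1.24, edgeR adjusted p = 0.0276) and depends on the prior count used for the clones at 0. A gene that enters only through the group where it is high had to differ, so this value is a description. It was called in 5 of 10 fits with a library left out and not without the filter on low counts (edgeR adjusted p = 0.0513).

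Akr1b3 (chr6:34302434-34317478) encodes aldose reductase, which turns glucose into sorbitol. It measured 45.5, 59.2, 26.7, 49.0 and 36.6 CPM in the high clones and 180, 69.5, 114, 314 and 122 CPM in the low clones. The groups did not overlap, although low 2 came close to high 2. Its relative log2 fold change was -2.17 (SE 0.37, edgeR adjusted p = 0.0252), called in 8 of 10 fits with a library left out. Aldose reductase belongs to a family of similar genes, and no source used here says how reads shared among them were counted.

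**Figure D5:**
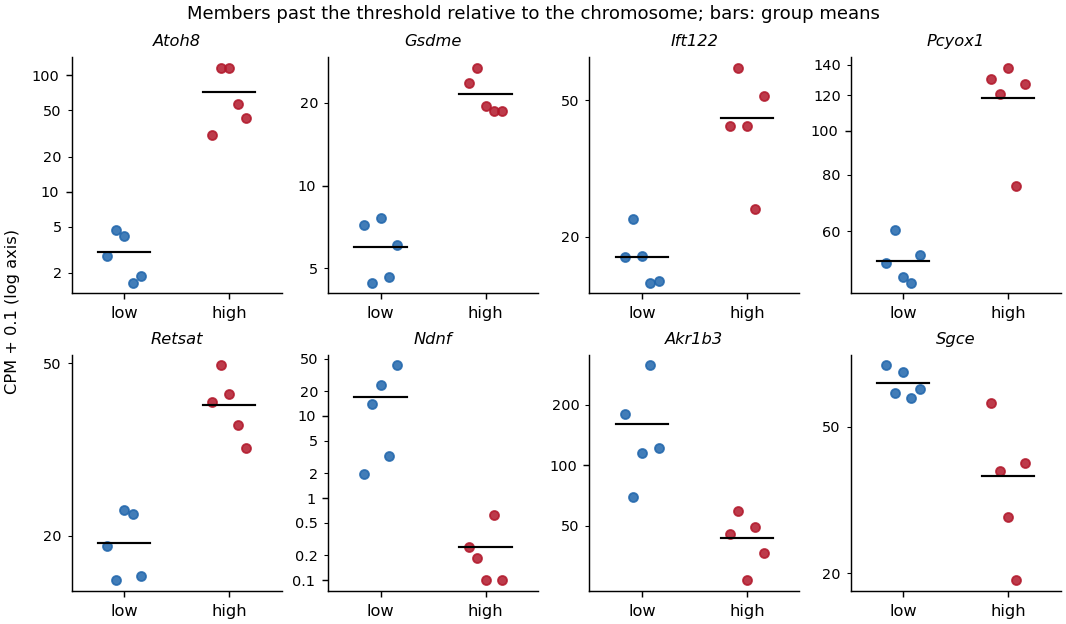
CPM plus 0.1 on a log axis (y axis) in the low (blue) and high (red) clones of the 8 members that passed relative to the chromosome; each point is 1 clone and bars are group means. No panel overlaps between the groups, and Ndnf is at or near 0 in the high clones against 1.88 to 41.2 CPM in the low clones.

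Sgce was the member that moved against its chromosome without passing the test that has no offset. It encodes epsilon-sarcoglycan and lies at chr6:4674350-4747207 on the minus strand, head to head with Peg10, a retrotransposon-derived gene that starts at 4747306 on the plus strand. Both are imprinted genes expressed from the paternal copy. Sgce measured 58.0, 37.9, 28.4, 19.1 and 39.9 CPM in the high clones and 73.3, 61.5, 70.2, 59.7 and 63.2 CPM in the low clones, with no overlap. Its log2 fold change was -0.84 without the offset (SE 0.25, edgeR adjusted p = 0.0746) and -1.19 relative to the chromosome (SE 0.19, edgeR adjusted p = 0.0181). With an offset per 10 Mb window it was -0.94 (edgeR adjusted p = 0.0777), so that call ended.

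Peg10 did not follow Sgce. It measured 40.9, 1061, 360, 37.9 and 77.1 CPM in the high clones and 60.3, 176, 262, 82.7 and 112 CPM in the low clones, so the groups overlapped fully (edgeR adjusted p = 0.480). High 2 held the most Peg10 and an average level of Sgce for its group, while high 4 held the least of both. Further members of the imprinted list were Pon2 and Pon3, paraoxonase genes close to Peg10, and Copg2, a coat protein gene that overlaps the imprinted gene Mest on the other strand. Pon3 measured 24.6, 37.7, 24.6, 26.3 and 32.7 CPM in the high clones and 13.6, 15.8, 16.4, 20.1 and 11.7 CPM in the low clones. Copg2 measured 55.0, 67.1, 50.6, 33.05 and 53.0 CPM against 28.6, 28.9, 23.2, 23.6 and 30.2 CPM. Both were called higher without the offset (0.91 and 0.94, edgeR adjusted p = 0.0275 and 0.0213) and neither relative to the chromosome (0.62 and 0.62, edgeR adjusted p = 0.124 and 0.0749). Of the 5 imprinted members, 3 were at an unadjusted p under 0.05 relative to the chromosome in edgeR. There DESeq2 called 3 and limma-voom 1 (11.6% and 2.72% of all members). Pon2 lay next to Pon3 and differed little, at 45.8 to 66.7 CPM in the high and 45.6 to 60.6 CPM in the low clones (0.06, edgeR adjusted p = 0.848). Mest averaged 4.19 CPM, under the minimum. The strand setting of the counting is not given, so reads from the 912 shared exon bases of Copg2 and Mest may count for either.

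The list of fat cell regulators held 5 members, of which 4 were called higher without the offset (10.2% of all members and 1.99% of all genes were). Relative to the chromosome 1, Retsat, was called higher (1.13% of all members and 0.648% of all genes). There all 5 were at an unadjusted p under 0.05 in edgeR (94 of all 441 members were). DESeq2 called 4 and limma-voom 1 (11.6% and 2.72% of all members). The 5 did not share a direction: 4 were higher and Adipor2 was lower (-0.61 relative to the chromosome). Pparg, the nuclear receptor that drives fat cell formation, measured 28.3, 77.0, 68.5, 26.5 and 42.6 CPM in the high clones and 10.9, 16.4, 19.1, 21.2 and 21.3 CPM in the low clones. The groups did not overlap, and its log2 fold change was 1.45 (SE 0.32, edgeR adjusted p = 0.0315), 1.16 relative to the chromosome (adjusted p = 0.101). That call was kept in 2 of 10 fits with a library left out. Lpcat3, which makes phospholipids that carry polyunsaturated fatty acids, measured 146, 138, 172, 90.6 and 120 CPM against 66.1, 64.9, 71.5, 81.5 and 61.3 CPM (0.95, edgeR adjusted p = 0.0163). It shares 334 exon bases with Emg1 on the other strand, a gene of similar level (126 CPM). Tcf7l1, a Wnt pathway transcription factor, was the remaining call (1.61, edgeR adjusted p = 0.0387) and was named after its values were seen. Adipor2, a receptor for adiponectin, was at 20.9 to 52.2 CPM in the high and 34.9 to 59.2 CPM in the low clones (-0.28, edgeR adjusted p = 0.60). The list's median log2 fold change was 1.06, against 0.35 for all members. The summed level of 5 markers of mature fat cells, of which 2 averaged at least 1 CPM, was 4.26 to 79.7 CPM in the high clones and 0.91 to 3.43 CPM in the low clones, and its part in these values was not tested.

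Genes of the extracellular matrix and secreted factors varied widely among clones. The list had 10 members with a median within-group SD of 1.41 on the log2 scale, against 0.30 for all members, and a median log2 fold change of 1.43. Of these, 3 were called higher without the offset (10.2% of all members were). Relative to the chromosome edgeR called 0, with 5 at an unadjusted p under 0.05. There DESeq2 called 5 and limma-voom 0 (11.6% and 2.72% of all members). Gpnmb, a membrane glycoprotein gene, measured 19.2, 52.3, 16.4, 138 and 19.1 CPM in the high clones and 1.82, 6.67, 8.43, 0.54 and 2.99 CPM in the low clones (3.58, SE 0.83, edgeR adjusted p = 0.0367). All its low clones but low 3 lay under 8 CPM. Gpnmb thus reached the minimum only through the high clones, and its call is a description. The other two calls, named after their values were seen, were Loxl3, a collagen cross-linking oxidase (1.03, edgeR adjusted p = 0.0183), and C1ra, a protease that starts the complement cascade (1.68, edgeR adjusted p = 0.0308). Cxcl12, a chemokine, ran from 3.76 CPM in high 5 to 452 CPM in high 2 and from 0.92 to 20.3 CPM in the low clones (edgeR adjusted p = 0.0757). Col1a2, a chain of collagen I and itself a fibroblast marker, measured 404, 1.98, 613, 2.15 and 119 CPM in the high clones and 885, 72.8, 404, 217 and 582 CPM in the low clones. High 2 and high 4 were thus almost without Col1a2, and the groups overlapped (edgeR adjusted p = 0.731). Fbln2, a matrix fibulin, was at 112 to 669 CPM in the high and 118 to 393 CPM in the low clones (edgeR adjusted p = 0.464).

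Of 25 mitochondrial members, 24 had a log2 fold change above 0 (371 of all 441 members did), with a median of 0.39 against 0.35 for all members, and 1 was called (Hibadh, a valine breakdown enzyme, named after its values were seen, 0.81, edgeR adjusted p = 0.0462). Relative to the chromosome the list's median was 0.05, as for all members, and edgeR called 0, with 2 at an unadjusted p under 0.05 (DESeq2 and limma-voom 0). Immt measured 250, 302, 242, 199 and 250 CPM in the high clones and 164, 170, 166, 231 and 208 CPM in the low clones (0.40, edgeR adjusted p = 0.149). High 4 was again the lowest high clone and lay within the low range. Ndufa9, a subunit of respiratory complex I, measured 232, 184, 180, 153 and 152 CPM against 135, 104, 130, 139 and 157 CPM (0.44, edgeR adjusted p = 0.135). Phb2, a prohibitin of the inner membrane, ranged from 273 to 409 CPM in the high and from 235 to 308 CPM in the low clones (0.25, edgeR adjusted p = 0.332).

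Of 19 secretory members, 19 had a log2 fold change above 0 (371 of all 441 members did), with a median of 0.31, and 1 was called (Copg2, above). Rpn1, a subunit of the enzyme that adds sugar chains to new proteins, measured 498, 323, 400, 286 and 393 CPM in the high clones and 299, 262, 312, 244 and 292 CPM in the low clones (0.43, edgeR adjusted p = 0.149). Rab7, a guanosine triphosphatase of late endosomes, was at 310 to 390 CPM in the high and 287 to 364 CPM in the low clones. Sec61a1, the pore through which new proteins enter the endoplasmic reticulum, was at 234 to 324 and 239 to 350 CPM, so both overlapped between the groups.

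Members for RNA processing and translation (20, median 0.27) and chromatin (18, median 0.39) gave 1 call (the RNA-binding protein gene Igf2bp3, named after its values were seen, at 36.2 to 110 CPM in the high and 9.45 to 31.6 CPM in the low clones, edgeR adjusted p = 0.0489) and 0 calls. Of the chromatin members, 9 were at an unadjusted p under 0.05, and DESeq2 called 1 and limma-voom 0. Hnrnpa2b1, an abundant RNA-binding protein gene, measured 2018, 1421, 1455, 1176 and 984 CPM in the high clones and 1830, 1356, 1507, 1469 and 1905 CPM in the low clones. Its lowest value was in high 5, whose window from 50 to 60 Mb, where the gene lies, had a median of -0.15. High 4, at 0.03 in that window, also lay below every low clone. High 2, at 0.45 there, lay within the low range, and high 1, at 0.50, above it. Pcbp1, a poly(C)-binding protein gene, and Rpl32, a ribosomal protein gene, differed little (0.15 and 0.04, edgeR adjusted p = 0.635 and 0.938). Chd4, a nucleosome remodeller, was at 484 to 631 CPM in the high and 473 to 591 CPM in the low clones (0.06, edgeR adjusted p = 0.837). Setd5, a chromatin regulator, was at 87.5 to 194 CPM in the high and at most 118 CPM in the low clones, and Aebp2, a partner of the Polycomb complex, was at 74.3 to 145 and 70.0 to 87.9 CPM (0.43, edgeR adjusted p = 0.176). For both, high 1 was the highest of the 10 clones, as it was in the shift.

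The 24 growth and cell cycle members had a median log2 fold change of 0.35, equal to that of all members, with 18 above 0. EdgeR called 0, with 9 at an unadjusted p under 0.05, and DESeq2 called 3 and limma-voom 0. Wnk1, a kinase that controls ion transport, measured 296, 267, 204, 179 and 373 CPM in the high clones and 156, 204, 185, 212 and 206 CPM in the low clones (0.45, edgeR adjusted p = 0.209). Mcm2, part of the replication helicase, was at 277 to 465 CPM in the high and 282 to 352 CPM in the low clones, and Ncapd2, a condensin subunit, at 176 to 332 and 175 to 252 CPM. Neither was called.

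The 6 glycolysis members had the lowest median log2 fold change of the 10 lists, 0.04, with 3 of 6 members above 0. EdgeR called 0, with 1 at an unadjusted p under 0.05, and DESeq2 called 1 and limma-voom 0. Gapdh measured 2528, 1241, 1725, 1168 and 1379 CPM in the high clones and 2272, 1104, 1818, 1780 and 1587 CPM in the low clones (-0.09, edgeR adjusted p = 0.882). Tpi1 was at 489 to 1192 CPM in the high and 579 to 1135 CPM in the low clones. Hk2, the hexokinase bound to mitochondria, was at 29.7 to 70.6 and 38.0 to 95.8 CPM. Relative to the chromosome (list median -0.28, 0 called by edgeR, 2 at an unadjusted p under 0.05, DESeq2 and limma-voom 0), Gapdh gave -0.41 (edgeR adjusted p = 0.348) and Hk2 -0.62 (edgeR adjusted p = 0.237). Gapdh, Tpi1, Rpl32 and Hnrnpa2b1 have many processed copies in the genome, and how reads shared with those were counted is not given.

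The 16 cytoskeleton members had a median of 0.42, with 12 above 0 and 1 called (Mtpn, myotrophin, named after its values were seen, 0.54, edgeR adjusted p = 0.0389). Cd9, a tetraspanin gene, measured 599, 255, 465, 476 and 255 CPM in the high clones and 474, 423, 528, 405 and 457 CPM in the low clones, so high 2 and high 5 were below every low clone although both had a raised shift. Flnc, a filamin that cross-links actin, was at 256 to 617 and 241 to 746 CPM, and Capg, which caps actin filaments, at 233 to 517 and 274 to 377 CPM. Neither differed beyond the spread between clones (edgeR adjusted p = 0.918 and 0.895).

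In 6 members 1 clone lay farthest from the nearest other clone once the chromosome median was taken out, and most of them also varied widely among the remaining clones. Podxl, a cell surface sialomucin gene, was at 0.25 CPM in high 1 and between 1.69 and 43.7 CPM in the other 9 clones. Zfp467, a zinc finger gene, was at 0.40 CPM in high 5 and 2.23 to 30.2 CPM elsewhere. Usp18, which removes the interferon-induced ubiquitin-like protein ISG15, was at 3.09 CPM in high 5 and 13.2 to 396 CPM elsewhere. Eps8, an actin capping and signalling protein gene, was at 9.90 CPM in high 3 and 42.1 to 175 CPM elsewhere. The windows around them, in the same clones, had medians of 0.45 (Podxl), 0.02 (Zfp467), 0.47 (Usp18) and 0.17 (Eps8). These 4 genes were picked for standing apart in that clone, so their distance from these medians followed from the choice. The widest upward departures were Cxcl12 in high 2 and Gpnmb in high 4.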

How the data were processed

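Poly(A) RNA was sequenced from 10 MEF clones, 1 library each. Per the labels' protocols the kit was stranded, and reads were processed on GRCm38 with STAR 2.7.8a among the tools (also R 4.2.1 and DESeq2 1.36.0), per the submitters' processing notes, which assign no roles. The counter, strand option and gene models behind the counts are not stated. The deposited table holds raw counts per Ensembl gene, made by the authors with 1 column per library, and it was used as it stands. Genes were placed with GENCODE M21 on GRCm38, which left 195 identifiers without an entry, and start regions came from RefSeq (GRCm38.p6).

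Tests were made with edgeR 4.0.16 in R 4.3.3: the default expression filter by group, TMM scaling and robust quasi-likelihood F-tests, two-sided, with Benjamini-Hochberg adjustment over 12964 genes, all 10 libraries and the group as the only term. CPM carry the TMM factor, and log2 CPM a prior count of 2. The SE of a log2 fold change was taken from its F statistic (fold change over root F). The relative fit adds to each library an offset equal to the median deviation of a gene's chromosome. The distal minus proximal difference and the interquartile range were tested by exact permutation. Groups came from the labels. P-values measure the spread between 5 clones a group. Same-numbered high and low libraries correlated at over 0.1 in 3 of 5 pairs (0.47, 0.14 and 0.24). The main fits did not take the numbers as pairs, and fits with the number as a block are given below.

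Members, the 10 role lists (177 genes, 147 of them members) and the tests were chosen with earlier results of these data known. Genes named are those called relative to the chromosome, the 3 members of highest CPM in each role list, all imprinted members, the 4 genes nearest the minimum and 6 members with a library far from the rest. Others are marked where named. Alternatives tried were upper-quartile and RLE scaling, TMM without chromosomes 6, 8, 10 and 14, the gene mean as reference, a minimum of 2 or 30 CPM, no filter, DESeq2 1.42.0, limma-voom 3.58.1, an offset per 10 Mb window, the replicate number as a block, each library left out and a threshold of 0.1. The code was tested on simulated data. Python 3.11.15 with matplotlib 3.10.9 drew the figures.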

Additional observations from a re-analysis of the deposited data

Results flagged for a closer look

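Among 51 measures, each searched in both groups (102 groups of 5), a single library stood apart from the other 4 of its group in 3, where chance alone gives about 1 in 20. The count is thus no higher than that rate gives. Eps8 was among the genes named because a library lay far from the rest, so its flag followed from that choice. Eps8 in high 3 lay at -3.53 on the log2 scale, as the deviation from the gene median after the median of the chromosome in that library was taken out, at 9.90 CPM against 83.2 to 136 CPM in the other high clones. Rpl32 in low 2 lay at -0.23 on the same scale, at 655 CPM against 864 to 962 CPM in the other low clones. Chd4 in low 3 lay at -0.19, at 473 CPM against 551 to 591 CPM.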

How the results depend on the processing

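The high minus low shift of 0.30 moved by less than the spread between clones under all 17 alternatives (0.22 to 0.35 with a library left out). One of them, added after seeing the data, used the mean of the low libraries as reference and gave 0.33. The distal minus proximal difference missed the threshold in all 19, from 0.01 without high 5 to 0.13 without high 4 among the fits with a library left out. The interquartile range difference ran from 0.12 to 0.25 with a library left out and was 0.09 with the gene mean as reference. Of the 441 members, DESeq2 called 22.9% without the offset, no filter on low counts gave 7.03%, a threshold of 0.1 gave 20.6%, and leaving out a library gave 3.17% to 17.0%, against 10.7%. Relative to the chromosome, DESeq2 called 11.6%, the offset per 10 Mb window 1.13%, a threshold of 0.1 gave 4.99%, and leaving out a library gave 0.68% to 3.40%, against 1.81%. Calls over all genes moved as well. Of 12964 genes, DESeq2 called 685 higher and 790 lower without the offset, against 258 and 372 in edgeR. Relative to the chromosome DESeq2 called 522 and 458, against 84 and 78 in edgeR. The DESeq2 counts of the role lists are to be read beside these. With the replicate number as a block, 6.58% (29 members) were called without the offset and 2.72% (12) relative to the chromosome, where Ndnf (adjusted p = 0.0937) and Retsat (0.0556) were no longer called and the other 6 named were, and 2 of 5 high libraries correlated best with the low library of their own number. The causes were not tested. Depth limits the fold change of Ndnf, with 18 counts over the high clones.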
